A study of Mus musculus with 6 samples.

Results

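The axon guidance ligands and receptors were examined in the auditory nerve of young adult mice: the semaphorins with their plexin and neuropilin receptors, the Slits and Robos, the netrins with Dcc and the Unc5 receptors, and the ephrins with the Eph receptors. Members were chosen by gene symbol, and 69 of the 17666 genes in the table matched. They were 35 ligand genes and 34 receptor genes. RNA sequencing compared 3 mice labelled KO, which lack complement factor B (gene Cfb) according to the label, with 3 mice labelled wildtype. Both genotypes were labelled C57 and were 1.5 to 2.5 months old, and the nerve tissue of the 2 cochleas of a mouse was pooled into 1 sample. The knockout allele, the C57 substrain, the sex of the mice and any kinship of the mice to one another are not stated in the labels. Values are normalized counts, which are per-gene read counts after the authors' scaling of each library and rounding.

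Guidance cues are secreted or membrane-bound proteins that attract or repel a growing axon, which reads them through receptors on its growth cone. Semaphorins act through plexins, with neuropilins as co-receptors for the secreted class 3 members. Slits act through Robos, netrins attract through Dcc and repel through Unc5 receptors, and ephrins bind Eph receptor tyrosine kinases on a neighbouring cell. In the developing cochlea several of these systems help to direct and bundle the processes of spiral ganglion neurons. In adult tissue many members are also made by glia, blood vessels and bone.

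Cfb, the targeted gene, went against the labels: its 3 values were 336, 351 and 376 in the libraries labelled KO, against 55, 39 and 116 in those labelled wildtype. Whether the reads came from a deleted or a kept stretch of Cfb cannot be seen from its total, so every direction below is between libraries as labelled. Column totals were between 38675077 and 41496282 and were set by the scaling, so read depth is unknown. The libraries labelled KO differed less from one another, with a chi-square per gene of 23.4 to 30.3 between pairs, than those labelled wildtype did, with 71.3 to 282.3. These chi-squares compare the libraries with one another only, since the scaled values leave no known level of sampling noise. Markers of neurons and Schwann cells, the cells of a nerve with its ganglion, were abundant in every library. Their summed normalized counts were 462855 to 564666 in the libraries labelled KO and 332297 to 570489 in those labelled wildtype for 12 neuronal markers. For 10 Schwann cell markers they were 426501 to 521364 in the libraries labelled KO and 428182 to 768079 in those labelled wildtype. Both sums overlapped between labels. Of the 10 Schwann cell markers, 4 were lower without overlap in the libraries labelled KO, against 14.9% of all genes. No listed marker of the neuron, Schwann cell, organ of Corti, osteoblast, fibroblast or endothelial lists was at 0 in any library, so RNA of cells outside the nerve was present too.

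Of the 69 guidance genes, 24 were higher in every library labelled KO than in every library labelled wildtype, and 1 was lower in the same sense. Over all 17666 genes those shares were 13.6% and 14.9%. The 24 were Slit2, Ntn1, Nrp1, Nrp2, the 4 class A plexins, Plxnb1, Plxnb3, Plxnd1, Dcc, Unc5b, Unc5d, Robo1, Epha4, Epha5, Ephb1, Ephb3, Efna3, Efnb1, Sema4c, Sema4d and Sema6a; the gene that was lower was Ntn5. Of the 34 receptor genes, 17 were higher without overlap, and of the 35 ligand genes 7. After the correction for transcript length described below these counts were 3 and 4, against 9.06% of all genes with a length. The receptor genes are longer, with a median of 6528 bp against 4260 bp for the ligand genes. The median log2 difference, labelled KO minus labelled wildtype on the log2(normalized count + 1) scale, was 0.39 over the 69 genes and 0.01 over all genes.

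Of the 69 genes, 8 had in the authors' deposited table a false discovery rate under 0.05, all with a higher level in the libraries labelled KO: Plxnd1, Slit2, Plxna3, Ephb3, Nrp1, Ntn1, Plxnb1 and Plxna4. Of the 15605 genes with a rate, 7.39% were called in either direction, 4.14% as higher and 3.25% as lower. Limma, fitted over all genes with Benjamini-Hochberg adjustment at 0.05, called 0 of the 69 genes and 0.158% of all genes. At an unadjusted p under 0.05 by limma, 21 of the 69 genes were higher and 1 was lower, against 10.8% and 9.2% of all genes. The limma calls depended on single libraries. Without wildtype replicate 3 limma called 6 members (Plxnd1, Slit2, Ntn1, Plxnb1, Nrp2 and Plxnb2), among 566 genes called of all 17666. Without wildtype replicate 1 it called Plxna4, among 87 genes called of all 17666.

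**Figure D1:**
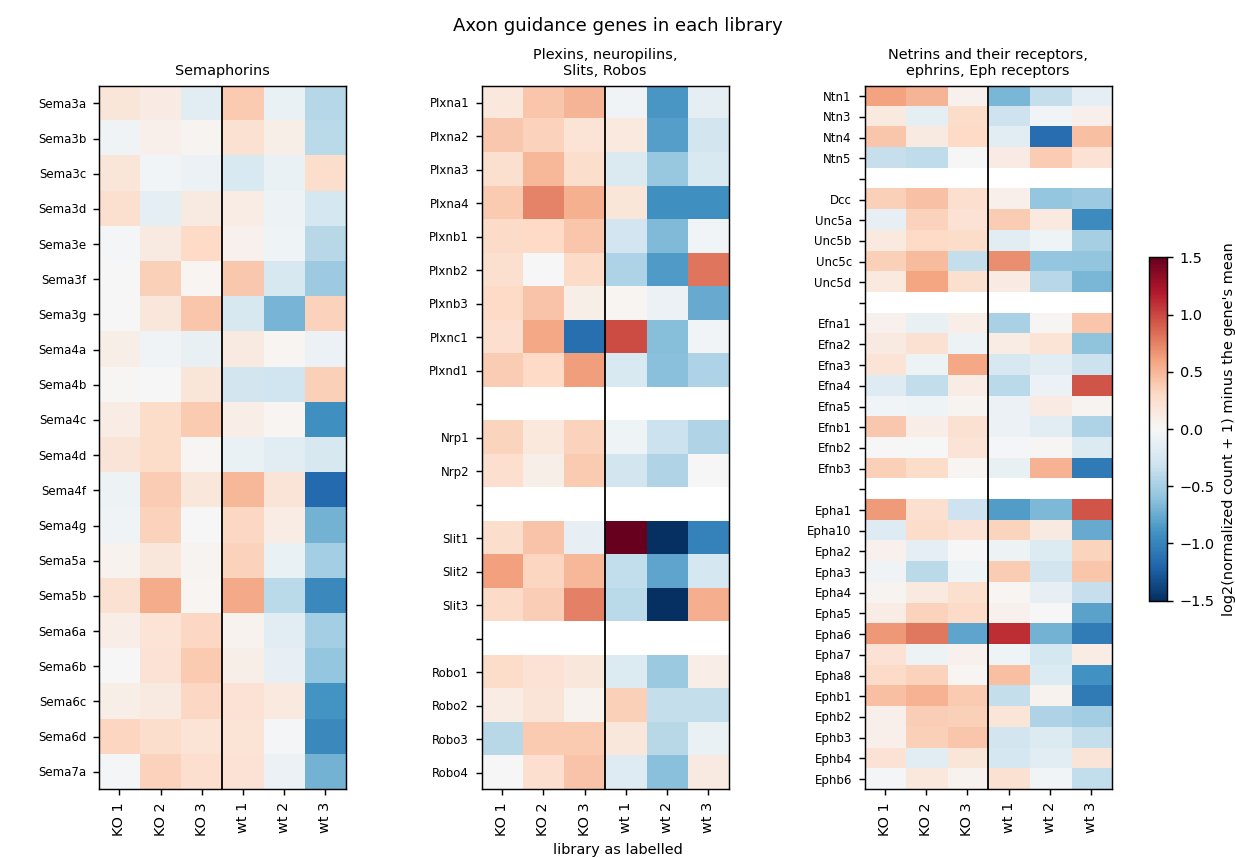
Heat map of the 69 axon guidance genes (rows, by family) in the 6 libraries (columns, those labelled KO left of the line and those labelled wildtype, wt, right of it); colour is log2(normalized count + 1) minus the gene's mean over the 6 libraries. Plexins are above their mean in most libraries labelled KO and below it in wildtype replicate 2, and many semaphorins are low in wildtype replicate 3.

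The direction went with transcript length, measured as merged exon length in the GENCODE M21 annotation. When the genes whose mean reached 20 were divided into 5 length classes of nearly equal size, the median log2 difference was -0.25 in the shortest class and 0.29 in the longest, which began at 5524 bp. Guidance genes are long: their median was 5117 bp, against 3124 bp over all genes, and 32 of the 69 lay in the longest class. In that class, 19 of the 32 guidance genes were higher without overlap, against 35.8% of all genes of that length. In the class before it, the count was 2 of 20 guidance genes, against 17.5% of all genes. Wildtype replicate 2 had the lowest median deviation of the longest class, -0.31. After each library was corrected for length, 7 of the 69 genes were higher without overlap and 2 were lower, against 9.06% and 15.7% of all genes with a length. The 7 were Slit2, Ntn1, Nrp1, Plxnd1, Plxna3, Efna3 and Efnb1, and the 2 were Ntn5 and Epha3. The median of the 69 differences was then 0.21, against -0.03 over all genes.

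**Figure D2:**
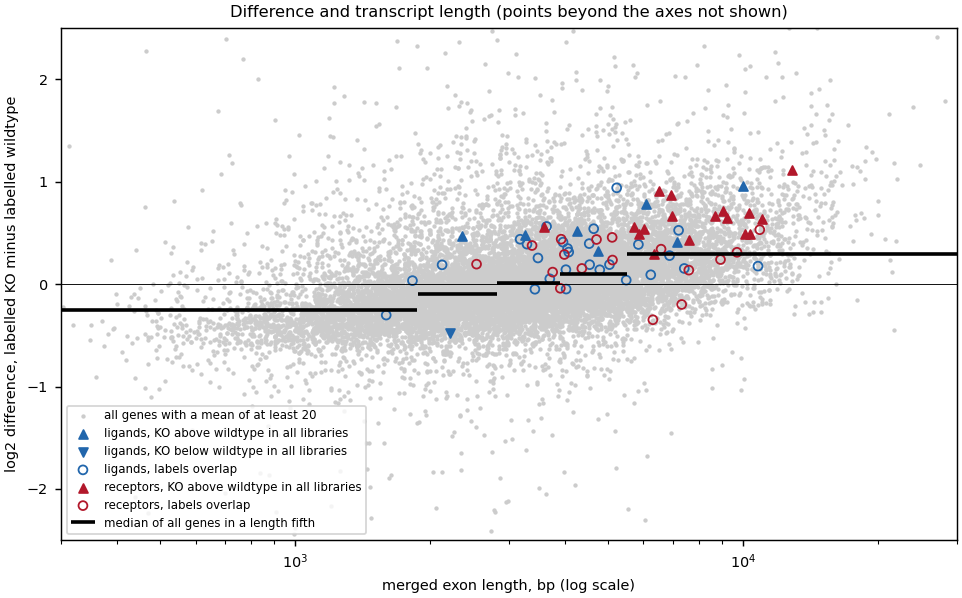
Log2 difference (labelled KO minus labelled wildtype, vertical axis) against merged exon length in bp (log scale) for all genes with a mean of at least 20 (grey) and for guidance ligands (blue) and receptors (red); filled triangles mark members whose libraries do not overlap between labels, and black bars mark the median of all genes in each of 5 classes of length. The medians run from -0.25 in the shortest class to 0.29 in the longest, and most filled red triangles lie to the right.

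Upstream sequence is shown for those of the 8 genes called in the authors' deposited table that have a RefSeq promoter window, since these are the members the results turn on. Each run is 150 bases, 5′ to 3′ on the gene's strand, and ends just before the RefSeq start. Where that stretch overlaps an exon of the GENCODE M21 basic annotation, it ends just before that exon. Exons outside the basic annotation were not checked. The Nrp1 run lies before the RefSeq start but inside the GENCODE extent of the gene, which begins at 128358604. Capitals mark GC boxes, the letters GGGCGG or, on the other strand, CCGCCC, the core of the sites bound by factors of the Sp family.
Slit2 (chr5:47982988-47983137, GRCm38.p6, plus strand): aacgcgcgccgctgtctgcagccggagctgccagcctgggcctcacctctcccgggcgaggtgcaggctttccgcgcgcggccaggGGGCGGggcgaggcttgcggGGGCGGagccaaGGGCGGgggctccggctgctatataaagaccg
Plxnd1 (chr6:115995006-115995155, GRCm38.p6, minus strand): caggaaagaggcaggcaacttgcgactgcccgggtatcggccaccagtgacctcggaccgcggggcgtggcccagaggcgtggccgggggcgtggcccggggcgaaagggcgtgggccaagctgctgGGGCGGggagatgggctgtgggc
Plxna3 (chrX:74328916-74329065, GRCm38.p6, plus strand): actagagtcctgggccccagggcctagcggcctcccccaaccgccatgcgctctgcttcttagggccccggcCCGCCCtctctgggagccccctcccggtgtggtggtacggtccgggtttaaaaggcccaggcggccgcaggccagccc
Plxnb1 (chr9:109095239-109095388, GRCm38.p6, plus strand): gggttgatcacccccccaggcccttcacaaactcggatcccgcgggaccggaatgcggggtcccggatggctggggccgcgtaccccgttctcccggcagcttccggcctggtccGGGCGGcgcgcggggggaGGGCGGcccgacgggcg
Nrp1 (chr8:128358923-128359072, GRCm38.p6, plus strand): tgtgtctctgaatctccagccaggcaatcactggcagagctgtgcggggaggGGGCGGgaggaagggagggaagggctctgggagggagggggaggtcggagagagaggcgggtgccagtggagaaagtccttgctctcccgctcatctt
Ephb3 (chr16:21204605-21204754, GRCm38.p6, plus strand): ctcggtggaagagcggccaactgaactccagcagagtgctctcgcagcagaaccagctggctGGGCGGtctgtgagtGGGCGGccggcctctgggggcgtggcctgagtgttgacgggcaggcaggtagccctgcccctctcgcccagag

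These runs are rich in G and C, from 64.0% in Nrp1 to 76.7% in Plxnb1, and hold between 1 and 3 GC boxes each. RefSeq windows were found for 59 of the 69 guidance genes. Within the 250 bases before the start, 43 of these 59 (72.9%) held a GC box on either strand, against 53.5% of the 13558 windows of genes in the table. Among the 18 windows of members that were higher without overlap the share was 72.2%, much the same as over all 59. The letters TATAAA were in 2 of the 59 windows (3.4%, against 7.5% of all), 1 of them that of Slit2. The cAMP response element TGACGTCA was in 1 window of 59, against 2.4% of all, and the E-box CACGTG in 3, against 7.9% of all. A match is a run of letters in the window and does not show that a factor is bound.

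Of the plexins, the receptors of semaphorins, 7 of 9 were higher without overlap, against 13.6% of all genes. Their median log2 difference was 0.67. Summed over the 9 genes, the level was 42739, 45086 and 46369 in the libraries labelled KO, against 33141, 21025 and 34321 in those labelled wildtype. Wildtype replicate 2 was the lowest, and the labels did not overlap. In a bulk sample fewer cells of a type and less RNA per cell cannot be told apart. All 9 plexin genes are at least 6030 bp long and so lie in the longest class of genes. After the length correction the plexin median was 0.29, and Plxna3 and Plxnd1 were the 2 that still did not overlap.

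Plxnd1 (chromosome 6, 115954811 to 115995005, GRCm38) encodes the receptor of the secreted semaphorin Sema3e and is best known for its role in blood vessel patterning. It had 6317, 5945 and 7485 normalized counts in libraries labelled KO, against 4149, 3147 and 3527 in those labelled wildtype. Every library labelled KO was above every library labelled wildtype by a wide gap. Plxnd1 averaged 6582 ± 804 under the KO label and 3608 ± 506 under the wildtype label (SD, n = 3 each), 1.82-fold higher, with a false discovery rate of 9.53e-05 in the authors' deposited table. The log2 difference was 0.87 (SE 0.14, adjusted p = 0.121 by limma, with a range of 0.0401 to 0.430 over the alternatives), and 0.57 after the length correction. Sema3e, its ligand, had 7283, 8098 and 9086 normalized counts in libraries labelled KO, against 7691, 7075 and 5511 in those labelled wildtype, and the labels overlapped.

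The class A plexins transduce class 3 signals together with neuropilins and class 6 signals without them. Plxna4 (chromosome 6, 32144268 to 32588192) had the largest difference of the 69 genes, with 5406, 6858 and 5931 normalized counts in libraries labelled KO, against 4639, 2164 and 2162 in those labelled wildtype. Wildtype replicate 1 lay near the libraries labelled KO and the other wildtype libraries far below. Plxna4 averaged 6065 ± 735 under the KO label and 2988 ± 1430 under the wildtype label (SD, n = 3 each), a log2 difference of 1.11 (SE 0.30, adjusted p = 0.165 by limma), with 0.51 after the length correction. Without wildtype replicate 1 the difference was 1.48 and passed (adjusted p = 0.0463, the lowest of a range that reached 0.485 by limma). The authors' deposited table gave a 2.03-fold higher level at a false discovery rate of 0.0315.

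Plxna3 (chromosome X, 74329066 to 74344689) had 952, 1137 and 965 normalized counts in libraries labelled KO, against 694, 542 and 688 in those labelled wildtype. The gap between labels was wider than the spread within either. Its log2 difference was 0.67 (SE 0.15, adjusted p = 0.160 by limma), and the false discovery rate in the authors' deposited table was 0.0066. Plxna1, the most abundant plexin gene, had 9371, 11225 and 11985 normalized counts in libraries labelled KO, against 8113, 4608 and 7592 in those labelled wildtype. Its labels did not overlap, but wildtype replicate 2 carried much of the difference: 0.72 on the log2 scale over all libraries and 0.46 without that library. The exons of Plxna1 share 970 bp with Gm26811 on the opposite strand, and whether the counting used strand is not stated in the labels or notes. Plxna2 had 3355, 3230 and 2913 normalized counts in libraries labelled KO, against 2795, 1433 and 2088 in those labelled wildtype, with wildtype replicate 1 again closest to the other label. Its difference of 0.64 was 0.39 without wildtype replicate 2.

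Among the class B plexins, receptors of class 4 semaphorins, Plxnb1 (chromosome 9, 109095389 to 109119917) had 6600, 6616 and 7169 normalized counts in libraries labelled KO, against 4416, 3397 and 5222 in those labelled wildtype. It was uniform under the KO label and more spread under the other. Plxnb1 averaged 6795 ± 324 under the KO label and 4345 ± 915 under the wildtype label (SD, n = 3 each), and the authors' deposited table gave a 1.56-fold higher level at a rate of 0.02. The log2 difference of 0.67 (SE 0.17, adjusted p = 0.162 by limma) was 0.26 after the length correction, when the labels overlapped. Plxnb2 had 7464, 6293 and 7691 normalized counts in libraries labelled KO, against 4576, 3509 and 11045 in those labelled wildtype. Wildtype replicate 3 was the highest of all 6 here, and without it the log2 difference of 0.34 was 0.83. Plxnb3, a plexin gene known for its expression in oligodendrocytes and other glia, had 2020, 2215 and 1752 under the KO label and 1684, 1553 and 979 under the wildtype label. Its difference of 0.54 was 0.30 without wildtype replicate 3. Plxnc1, the receptor of Sema7a, overlapped fully, with 1254, 1567 and 478 in the libraries labelled KO, against 2075, 672 and 1018 in those labelled wildtype.

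Both neuropilin genes were higher without overlap. Nrp1 (chromosome 8, 128358604 to 128503363), the co-receptor of Sema3a and of vascular endothelial growth factor, had 5499, 4892 and 5555 normalized counts in libraries labelled KO, against 4169, 3502 and 3197 in those labelled wildtype. The lowest library labelled KO exceeded the highest wildtype library. Nrp1 averaged 5315 ± 368 under the KO label and 3623 ± 497 under the wildtype label (SD, n = 3 each), with a log2 difference of 0.56 (SE 0.13, adjusted p = 0.161 by limma) and a false discovery rate of 0.012 in the authors' deposited table. The difference was 0.51 after the length correction. The merged exons of Nrp1 come to 3597 bp because the basic annotation used here holds a single, coding transcript of it, so its correction and its level per kilobase rest on that transcript. Nrp2, the co-receptor of Sema3f and Sema3c, had 3541, 3159 and 3913 normalized counts in libraries labelled KO, against 2450, 2165 and 2963 in those labelled wildtype. Its difference of 0.49 was 0.00091 after the length correction, with 10380 bp of exons.

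Endothelial markers were higher under the KO label beside these vessel-related receptors: the summed normalized counts of 8 markers (Pecam1, Cdh5, Kdr, Tie1, Tek, Flt1, Cldn5 and Emcn) were 14726 to 18030 in the libraries labelled KO, against 12837 to 14030 in those labelled wildtype. Of the 8, 5 were higher without overlap and 0 were lower, against 13.6% and 14.9% of all genes, and none was at 0 in any library. The marker counts were not corrected for transcript length. The endothelial median log2 difference was 0.41. It was 0.36 for mural cell markers, 0.37 for central glia and 0.38 for satellite and nonmyelinating glia, whose sums overlapped between labels. Robo4, a Robo receptor of endothelial cells, had 602, 713 and 807 normalized counts in libraries labelled KO, against 524, 387 and 659 in those labelled wildtype, which overlapped. The part of endothelial content in the levels of Plxnd1, Nrp1 and Robo4 was not tested. Of 10 organ of Corti markers, 4 were higher without overlap and 0 were lower, against 13.6% and 14.9% of all genes. Their median log2 difference was 1.45, the highest of the marker lists. In size it was below the medians of the red cell markers, -2.41, and of the neutrophil and marrow markers, -2.89. The sums of the 10, 18226 to 34297 in the libraries labelled KO and 8158 to 18719 in those labelled wildtype, overlapped. Osteoblast marker sums were lower, 125049 to 150162 under the KO label against 158130 to 334422 under the wildtype label, but 3 of the 9 markers were lower without overlap and their median log2 difference was -0.01. Fibroblast marker sums were 40002 to 53613 under the KO label and 54425 to 55270 under the wildtype label, with 1 of 7 markers higher and 2 lower without overlap. All 8 red cell markers were lower without overlap, with sums of 2698 to 3878 under the KO label and 10641 to 33056 under the wildtype label. So were 7 of 8 neutrophil and marrow markers, with sums of 24 to 695 under the KO label and 756 to 2308 under the wildtype label, and of these Elane was at 0 in at least 1 library. The part of these tissues in the guidance genes was not tested either.

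**Figure D3:**
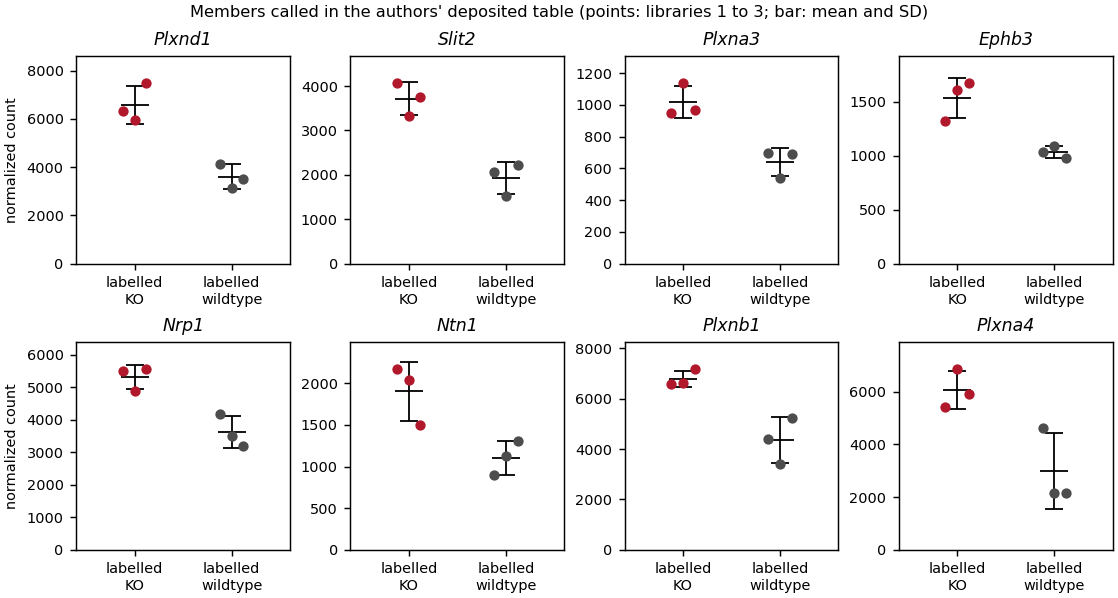
Normalized counts of the 8 guidance genes with a false discovery rate under 0.05 in the authors' deposited table, in the 3 libraries labelled KO (red, left) and the 3 labelled wildtype (grey, right); points are libraries, bars the mean and SD, and each axis starts at 0. In all 8 panels the red points lie above the grey ones, with the narrowest gaps for Ntn1 and Plxna4.

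Of the semaphorins, the ligands of these receptors, 3 of 20 were higher without overlap, a share near the 13.6% of all genes, and 0 were lower. With length corrected, 0 of 20 were higher or lower without overlap, and 0 were called in the authors' deposited table or by limma. At an unadjusted p under 0.05 by limma, 2 of 20 were higher and 0 were lower, against 10.8% and 9.2% of all genes. The 20 log2 differences lay between -0.05 and 0.54, with a median of 0.30, and the median was 0.14 without wildtype replicate 3. Sema7a, the semaphorin attached to the membrane by a lipid anchor, was the most abundant guidance gene, with 19255, 24893 and 23313 normalized counts in libraries labelled KO, against 22620, 18346 and 11938 in those labelled wildtype. Wildtype replicate 3 was the lowest and the other 5 libraries overlapped. That library was also the lowest of all 6 for all 4 class 6 genes, whose sums were 11077, 11361 and 11875 in the libraries labelled KO, against 10929, 9635 and 5631 in those labelled wildtype. It had the lowest sum of neuronal markers too, 332297.

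The secreted class 3 genes showed no member without overlap, with differences between 0.04 and 0.40. Sema3b had 7429, 8124 and 7916 normalized counts in libraries labelled KO, against 9008, 8188 and 5806 in those labelled wildtype. Sema3d, a repellent known from neural crest and vessel development, had 3117, 2413 and 2899 under the KO label and 2867, 2512 and 2199 under the wildtype label. Sema3a, the classical repellent of sensory axons, had 941, 904 and 739 in the libraries labelled KO, against 1088, 772 and 618 in those labelled wildtype. Both the highest and the lowest value of Sema3a came from libraries labelled wildtype. Sema3g, a class 3 gene of vessels, was the least abundant, with 583, 658 and 779 under the KO label and 492, 359 and 741 under the wildtype label. Sema3a, Sema3c, Sema3d and Sema3e are neighbours on chromosome 5, between 12383385 (the start of Sema3d) and 17730268 (the end of Sema3c). Sema3c and Sema3f overlapped too, with differences of 0.04 and 0.26. After the length correction the class 3 median was -0.02, against 0.15 before it.

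In class 4, whose members span the membrane and signal largely through class B plexins, Sema4d was higher without overlap. Sema4d, which acts in the immune system and on bone as well as on axons, had 1781, 1883 and 1578 normalized counts in libraries labelled KO, against 1448, 1398 and 1322 in those labelled wildtype. Its log2 difference was 0.33 (SE 0.11, adjusted p = 0.195 by limma). Sema4c had 6514, 7257 and 7900 in the libraries labelled KO, against 6455, 6139 and 3184 in those labelled wildtype. The gap between the nearest Sema4c libraries was small, and the difference of 0.52 was 0.19 without wildtype replicate 3. Sema4g had 1810, 2372 and 1863 under the KO label and 2325, 2015 and 1148 under the wildtype label. Sema4b and Sema4f overlapped, with differences of 0.14 and 0.31. Sema4a, the least abundant of the class, was nearly level across all 6 libraries, with 247, 224 and 214 under the KO label and 254, 236 and 219 under the wildtype label.

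In classes 5 and 6, Sema6a, a ligand and receptor of class A plexins, was higher without overlap. It had 1565, 1686 and 1808 normalized counts in libraries labelled KO, against 1507, 1303 and 1023 in those labelled wildtype, and its difference of 0.42 was 0.26 without wildtype replicate 3. Sema6d had 5289, 5062 and 4863 under the KO label and 4865, 4149 and 2159 under the wildtype label. KO replicate 3 fell just short of wildtype replicate 1, so Sema6d counts as overlapping. Sema6c had 2312, 2394 and 2705 under the KO label and 2540, 2427 and 1176 under the wildtype label. Sema6b had 1911, 2219 and 2499 under the KO label and 2017, 1756 and 1273 under the wildtype label. Of the class 5 genes, which carry thrombospondin repeats, Sema5a had 7104, 7707 and 7060 under the KO label and 8724, 6388 and 4806 under the wildtype label. Sema5b was much lower, with 225, 284 and 197 under the KO label and 285, 145 and 98 under the wildtype label, and both genes overlapped.

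The 3 Slit genes had a median log2 difference of 0.94, and 0.48 after the length correction. Slit2 (chromosome 5, 47983138 to 48307733), a secreted repellent that acts through Robo receptors, had 4064, 3329 and 3745 normalized counts in libraries labelled KO, against 2054, 1531 and 2213 in those labelled wildtype. The lowest library labelled KO was well above the highest wildtype library. Slit2 averaged 3713 ± 369 under the KO label and 1933 ± 357 under the wildtype label (SD, n = 3 each), 1.92-fold higher, with a false discovery rate of 1.46e-04 in the authors' deposited table. The log2 difference was 0.95 (SE 0.16, adjusted p = 0.121 by limma, with a range of 0.0267 to 0.440 over the alternatives), and 0.48 after the length correction, when the labels still did not overlap. Leaving out wildtype replicate 3 or weighting the libraries by quality brought Slit2 past the threshold.

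Slit3 had 1405, 1494 and 1949 normalized counts in libraries labelled KO, against 870, 393 and 1686 in those labelled wildtype. The labels overlapped through wildtype replicate 3, and the log2 difference of 0.94 was 1.45 without it and 0.40 without wildtype replicate 2. Slit1, the Slit of the central nervous system, was scarce, with 33, 37 and 25 under the KO label and 118, 8 and 13 under the wildtype label. Its mean was 31.7 ± 6.1 in the libraries labelled KO and 46.3 ± 62.1 in those labelled wildtype (SD, n = 3 each), which wildtype replicate 1 alone made the higher one. The difference of mean log values had the other sign, 0.39, and was -0.34 without wildtype replicate 2. Among the receptors, Robo1 had 4096, 3933 and 3798 in the libraries labelled KO, against 2949, 2303 and 3638 in those labelled wildtype. Robo1 was higher without overlap (log2 difference 0.44, SE 0.17, adjusted p = 0.225 by limma), and the difference was 0.27 without wildtype replicate 2 and 0.096 after the length correction. Robo2 had 751, 799 and 724 under the KO label and 894, 543 and 542 under the wildtype label. Robo3, which in the developing hindbrain lets commissural axons cross the midline, was near the limit of detection, at 3, 6 and 6 under the KO label and 5, 3 and 4 under the wildtype label.

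Netrins lay on both sides. Ntn1 (chromosome 11, 68209364 to 68400823), the attractant of commissural axons that is also needed to shape the inner ear, had 2170, 2040 and 1501 normalized counts in libraries labelled KO, against 893, 1121 and 1304 in those labelled wildtype. KO replicate 3 stood closest to the wildtype libraries. Ntn1 averaged 1904 ± 355 under the KO label and 1106 ± 206 under the wildtype label (SD, n = 3 each), with a 1.72-fold higher level at a false discovery rate of 0.0148 in the authors' deposited table. The log2 difference was 0.78 (SE 0.20, adjusted p = 0.162 by limma), and 0.54 after the length correction, again without overlap. Ntn5 had 107, 104 and 136 normalized counts in libraries labelled KO, against 148, 177 and 158 in those labelled wildtype. It was the only member lower without overlap, with a log2 difference of -0.48 (SE 0.20, adjusted p = 0.246 by limma) and -0.42 after the length correction. Its exons share 519 bp, 23.4% of their length, with Sec1 on the opposite strand, so its count is uncertain. Ntn4, a basement membrane netrin, had 1029, 850 and 953 under the KO label and 693, 350 and 1062 under the wildtype label, and Ntn3 had 346, 285 and 377 under the KO label and 251, 303 and 328 under the wildtype label. Both overlapped.

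Of the netrin receptors, Dcc, the receptor of the attractive response, had 456, 483 and 422 normalized counts in libraries labelled KO, against 376, 237 and 244 in those labelled wildtype. It was higher without overlap, with wildtype replicate 1 nearest, and a log2 difference of 0.70 (SE 0.21, adjusted p = 0.176 by limma) that was 0.21 after the length correction. Unc5b, a repulsive netrin receptor also found on vessels, had 1600, 1770 and 1750 under the KO label and 1282, 1376 and 1023 under the wildtype label. Unc5d, which also binds the adhesion protein Flrt2, had 2343, 3171 and 2487 under the KO label and 2298, 1578 and 1316 under the wildtype label. Both Unc5b and Unc5d were higher without overlap, Unc5d by a narrow gap to wildtype replicate 1, with differences of 0.49 and 0.65. Their length-corrected differences were 0.26 for Unc5b and 0.22 for Unc5d, and then 0 of the 5 netrin receptor genes were without overlap. Unc5c had 1603, 1738 and 975 under the KO label and 2039, 836 and 833 under the wildtype label. Unc5a had 860, 1185 and 1083 under the KO label and 1213, 1034 and 481 under the wildtype label, and in both genes the highest library was wildtype replicate 1.

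Among the Eph receptors 4 of 14 were higher without overlap and 0 were lower, against 13.6% and 14.9% of all genes. After the length correction 0 were higher and 1 was lower, against 9.06% and 15.7% of all genes with a length. The median difference was 0.34, and 0.05 after the correction. Ephb3 (chromosome 16, 21204755 to 21223305), a receptor of B-type ephrins, had 1324, 1606 and 1670 normalized counts in libraries labelled KO, against 1034, 1090 and 982 in those labelled wildtype. The wildtype libraries were tight and all lower. Ephb3 averaged 1533 ± 184 under the KO label and 1035 ± 54 under the wildtype label (SD, n = 3 each), and the false discovery rate in the authors' deposited table was 0.00758 for a 1.48-fold higher level. The log2 difference of 0.56 (SE 0.13, adjusted p = 0.161 by limma) was 0.34 after the length correction, when the labels overlapped. Ephb1, which steers retinal axons at the optic chiasm, had 1073, 1130 and 1032 under the KO label and 615, 816 and 376 under the wildtype label. Its difference of 0.91 (SE 0.27, adjusted p = 0.174 by limma, false discovery rate 0.0502 in the authors' deposited table) was 0.60 without wildtype replicate 3. It was 0.64 after the length correction, when the labels overlapped.

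Ephb2 had 796, 979 and 965 normalized counts in libraries labelled KO, against 858, 548 and 528 in those labelled wildtype. Ephb4, the receptor that marks venous endothelium, had 2380, 1817 and 2309 under the KO label and 1705, 1825 and 2331 under the wildtype label. Ephb6, which lacks kinase activity, had 2101, 2397 and 2231 under the KO label and 2525, 2093 and 1663 under the wildtype label. All 3 overlapped, and the median difference of the 5 B-type receptor genes was 0.53, and 0.056 after the length correction.

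The A-type receptors had a median difference of 0.29, which was 0.034 after the length correction and 0.12 without wildtype replicate 3. Epha4, a receptor of both ephrin types, had 3461, 3731 and 3979 normalized counts in libraries labelled KO, against 3419, 3094 and 2635 in those labelled wildtype. Epha5 had 1240, 1466 and 1405 under the KO label and 1200, 1157 and 657 under the wildtype label. Both were higher without overlap by a gap that was small beside the spread, and their differences of 0.29 and 0.49 were 0.034 and 0.016 after the length correction. Without wildtype replicate 3 they were 0.19 for Epha4 and 0.21 for Epha5. Epha7 had 3377, 2743 and 3040 under the KO label and 2784, 2425 and 3136 under the wildtype label, which overlapped. Epha3, with 316, 247 and 314 under the KO label and 427, 271 and 437 under the wildtype label, was lower without overlap only after the length correction (-0.35 before it and -0.61 after it). The remaining A-type genes, Epha1, Epha2, Epha8 and Epha10, overlapped, with differences between -0.04 and 0.44. Epha6 was the least abundant, with 48, 53 and 17 under the KO label and 66, 18 and 14 under the wildtype label.

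Ephrins, the ligands of the Eph receptors, had a median difference of 0.16. Of the 8, 2 were higher without overlap, against 13.6% of all genes. Efnb1, a transmembrane ephrin, had 1326, 1072 and 1169 normalized counts in libraries labelled KO, against 942, 889 and 725 in those labelled wildtype. Its log2 difference was 0.48 (SE 0.15, adjusted p = 0.176 by limma) and 0.46 after the length correction, one of the few little moved by it, with 3258 bp of exons. Efna3 was also higher without overlap but scarce, with 22, 18 and 29 under the KO label and 16, 17 and 15 under the wildtype label, with a difference of 0.47 that was 0.30 without KO replicate 3. Its exons share 344 bp with Gm15998 on the opposite strand. The most abundant ephrin gene was Efnb2, a marker of arterial endothelium, with 3752, 3758 and 4343 under the KO label and 3683, 3815 and 3252 under the wildtype label. Efnb3, a ligand made in myelin-forming glia of the central nervous system, had 2126, 2013 and 1702 under the KO label and 1536, 2392 and 795 under the wildtype label. Among the lipid-anchored A-type ephrins, Efna5 had 808, 799 and 856 under the KO label and 786, 907 and 856 under the wildtype label. Efna1 had 702, 620 and 723 under the KO label and 481, 679 and 896 under the wildtype label. Efna2 had 139, 148 and 120 under the KO label and 137, 146 and 83 under the wildtype label. These 5 ephrin genes overlapped, and so did Efna4, for which wildtype replicate 3 was the highest with 219.

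**Figure D4:**
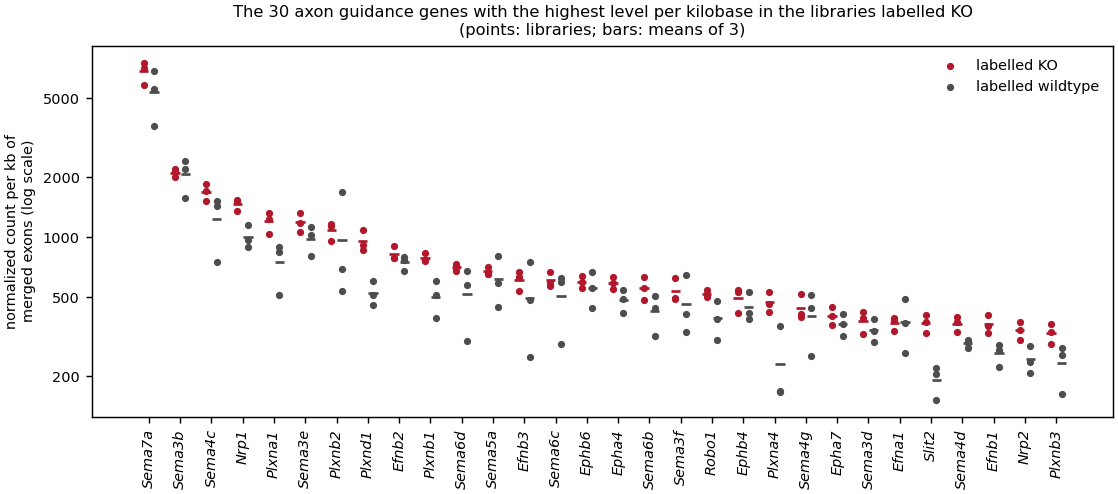
Level per kilobase of merged exons (vertical axis, normalized count per kb, log scale) for the 30 guidance genes with the highest level under the KO label, in libraries labelled KO (red) and wildtype (grey); points are libraries and bars are means of 3. Sema7a stands above the rest under both labels, followed by Sema3b and Sema4c.

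Per kilobase of merged exons, the order of levels was led by Sema7a, with 6820 normalized counts per kb in the libraries labelled KO and 5349 in those labelled wildtype. Sema3b followed with 2110 under the KO label and 2068 under the wildtype label, then Sema4c with 1696 under the KO label and 1235 under the wildtype label. Nrp1 had 1478 under the KO label and 1007 under the wildtype label. Plxna1 was the plexin gene with the highest level per kb under the KO label (1202), and Plxnb2 the one with the highest under the wildtype label (971). Efnb2 led the ephrins with 824 under the KO label and 748 under the wildtype label, and Ephb6 led the Eph receptors with 596 under the KO label and 557 under the wildtype label. Slit2 had 370 under the KO label and 193 under the wildtype label. Robo3 was the lowest of all, with 0.977 under the KO label and 0.782 under the wildtype label.

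**Figure D5:**
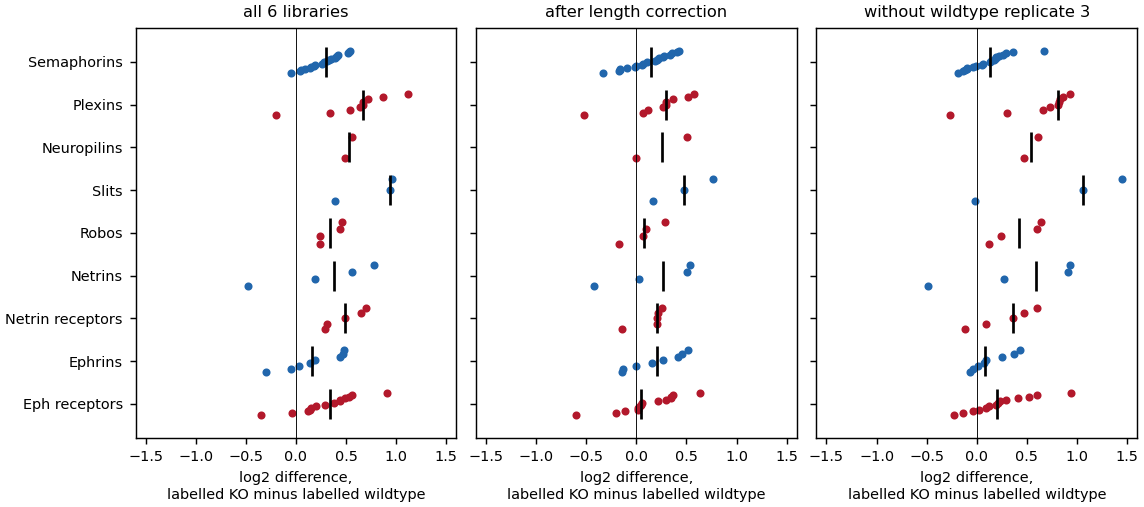
Log2 difference (labelled KO minus labelled wildtype) of each guidance gene by family, for ligands (blue) and receptors (red), over all 6 libraries, after the length correction and without wildtype replicate 3; black bars are family medians. The plexin median is 0.67 over all libraries, 0.29 after the length correction and 0.81 without wildtype replicate 3, and the semaphorin median is 0.30, 0.15 and 0.14.

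Signalling genes downstream of guidance receptors lay on both sides. Of 72 listed genes, 19 were higher and 7 lower without overlap, and the authors' deposited table had 7 as higher and 2 as lower at a rate under 0.05. Limma called 0 of the 72 after adjustment, with 17 higher and 6 lower at an unadjusted p under 0.05. Over all genes 13.6% were higher and 14.9% lower without overlap. The authors' deposited table had 4.14% of all genes with a rate as higher and 3.25% as lower. At an unadjusted p under 0.05 by limma these shares were 10.8% and 9.2% of all genes. After the length correction 3 of the 72 were higher and 12 lower without overlap, against 9.06% and 15.7% of all genes with a length. Of the 72 log2 differences, 52 were positive before the correction and 40 after it. The median log2 difference was 0.26, and 0.03 after the length correction. The genes named from this list as higher are mostly long and act on the actin cytoskeleton. Mical3, of a family of plexin-bound actin oxidases, had 5768, 7187 and 6905 normalized counts in libraries labelled KO, against 4335, 3521 and 3170 in those labelled wildtype (log2 difference 0.85, SE 0.15, adjusted p = 0.132 by limma). Srgap1, a GTPase-activating protein bound by Robo1, had 4039, 4222 and 4515 under the KO label and 3144, 2609 and 2867 under the wildtype label, and did not overlap after the length correction either. Differences were 0.71 for Trio, an exchange factor that acts downstream of Dcc, 0.74 for Srgap3, 0.77 for Mical2, 0.70 for Abl2, a kinase that reorganizes actin, and 0.50 for Sh3bp1. All of these were higher at a rate under 0.05 in the authors' deposited table. After the length correction the differences were 0.13 for Trio, 0.32 for Srgap3, 0.21 for Abl2 and 0.41 for Mical3, and all of them overlapped. Mical2 (0.28) and Sh3bp1 (0.52) still did not overlap.

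Among the genes that were lower without overlap were Sdcbp, Rras, Cfl1 and Nck1. Apart from Sdcbp they were named after their values were seen. Cfl1 is cofilin, which severs actin, Nck1 is an adaptor that links receptors to the cytoskeleton, and Sdcbp is the scaffold syntenin, which binds ephrin-B proteins. Sdcbp had 8138, 6826 and 7040 normalized counts in libraries labelled KO, against 9225, 11058 and 11484 in those labelled wildtype, with a false discovery rate of 0.0147 in the authors' deposited table. Every library labelled KO was below every library labelled wildtype. The log2 differences were -0.53 for Sdcbp, -0.65 for Rras, -0.31 for Cfl1 and -0.27 for Nck1. After the length correction all 4 were still lower without overlap, with -0.60 for Sdcbp, -0.38 for Rras, -0.28 for Cfl1 and -0.40 for Nck1.

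Further ligands, receptors and adhesion proteins of axon guidance were counted in the same way. Of 50 listed genes with a row in the table, 17 were higher and 0 lower without overlap, against 13.6% and 14.9% of all genes. Corrected for length, these counts were 5 and 3, against 9.06% and 15.7%. Limma called 0, with 16 higher and 1 lower at an unadjusted p under 0.05, against 10.8% and 9.2% of all genes. In the authors' deposited table a rate under 0.05 was given to 8 of the 50, all higher. Of all genes with a rate, 4.14% were called there as higher and 3.25% as lower. The median difference was 0.39, and 0.24 after the length correction and 0.22 without wildtype replicate 3. Flrt1, an adhesion protein of the family that binds Unc5 receptors, had 1037, 976 and 1115 normalized counts in libraries labelled KO, against 484, 312 and 621 in those labelled wildtype. Its log2 difference was 1.19 (SE 0.25, adjusted p = 0.151 by limma), and 0.97 after the length correction without overlap. Kdr, a receptor of vascular endothelial growth factor that can partner with neuropilins, had 1104, 1009 and 1126 under the KO label and 722, 642 and 744 under the wildtype label. Cspg4, a proteoglycan that inhibits axon growth, had 1028, 1245 and 1286 under the KO label and 665, 508 and 757 under the wildtype label. The log2 difference was 1.12 for Celsr3, 0.95 for Tenm4, 1.01 for Tenm2, 0.93 for Dscam, which serves as a netrin receptor, and 0.84 for Dscaml1. Kdr, which is also among the endothelial markers above, Cspg4, Flrt1 and these 5 genes were the ones called in the authors' deposited table. After the length correction Celsr3 (0.57), Tenm4 (0.31), Tenm2 (0.55), Dscam (0.53) and Dscaml1 (0.55) overlapped. Kdr (0.39) and Cspg4 (0.52) still did not overlap.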

How the data were processed

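RNA of 6 auditory nerve samples was sequenced. The authors deposited normalized counts, scaled and rounded, treated here as a score because the scaling is known only from the values. Beside them stand, per the file headers, a signed fold change (also a score) and a false discovery rate, absent for 2061 genes. The submitters' processing notes list TopHat2, DESeq2, Partek and the mm10 build; no version and no role is attached to any. Since no raw counts were used, limma 3.58.1 in R 4.3.3 was fitted over all 17666 genes on log2(value + 1), all with a mean of at least 1, with label as the only term and a trend on the mean; fold changes on this scale understate the change of low genes. The method was tested on simulated data.

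Lengths are merged exons of the GENCODE M21 basic annotation (GRCm38, the same assembly as mm10), found for 98.9% of genes and all 69 members; the length correction removed a natural spline of log2 length from each library. Promoter windows are RefSeq's, GRCm38.p6. Nothing shows that samples of 1 label came from separate litters, and p-values measure the spread between these mice. An exact permutation test of 3 against 3 cannot give a p below 0.1, so none was run. Members and lists were chosen with earlier results of these data known. Groups follow the genotype label. Named were members called in either test or not overlapping, the 3 most and the 1 least abundant of each family, and up to 8 genes per pathway list by the authors' rate; further members and 3 of the lower signalling genes were added after their values were seen, and some listed genes are not reported here. Alternatives changed the pseudocount, filter, scaling, spread model, replicate block, length and the libraries used.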

Additional observations from a re-analysis of the deposited data

How the results depend on the processing

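None of the 25 guidance genes without overlap changed sign under any alternative run. Only the changes of scaling and the length correction could have changed it. Under the other alternatives, values that do not overlap keep their sign whatever the result. Of the 44 genes that overlapped, 24 changed sign under at least 1 alternative, among them 13 without wildtype replicate 3. The differences of these 44 are values with no direction read from them. Limma called 28 genes in all and 0 guidance genes; over all genes it called 16 without a trend, 111 with sample quality weights, 17 after the length correction, and between 0 and 566 with 1 library left out (566 without wildtype replicate 3 and 87 without wildtype replicate 1), and the authors' deposited table called 1153. Guidance genes called were 1 with sample quality weights, 0 to 6 with 1 library left out, and 8 in the authors' deposited table. With the replicate block limma called 7 genes in all and 0 guidance genes. The correlation of deviations between same-numbered libraries was -0.065, 0.103 and 0.246. Between differently numbered libraries it lay between -0.398 and 0.469. These few correlations cannot decide whether the numbers pair the mice, which is unknown. Guidance genes higher without overlap numbered 7 after the length correction, against 24 over all libraries. With 1 library left out they numbered between 25 and 37, the highest without wildtype replicate 1. Those lower numbered 2 after the length correction and 1 to 2 with 1 library left out. Leaving out a library can only keep or raise such counts, so their ranges say nothing about stability. The median log2 difference of the guidance genes was 0.21 after the length correction and 0.22 to 0.49 with 1 library left out, the lowest without wildtype replicate 3. For the signalling list it was 0.0336 after the length correction. For the other guidance molecules it was 0.24 after the length correction and 0.22 to 0.47 with 1 library left out. The length correction depends on the annotation used. Read depth is unknown, so no counting interval could be given, and Robo3, Efna3, Slit1 and Epha6 are too scarce for a firm comparison.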
